A study of Rattus norvegicus with 3 samples.

Results

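The genes described here bring fatty acids into muscle and release them from circulating lipoproteins. They are 9 genes chosen by symbol: Cd36, Fabp3, Fabp4, Slc27a1, Slc27a4, Lpl, Gpihbp1, Angptl4 and Vldlr. Each symbol was looked up in the platform's probe annotation, and the probe set with the highest mean was used where a gene had several. All 9 were measured, out of 14506 genes with a probe set of their own, and all 9 lay above the level under which genes were counted as dim (5.34 on the log2 scale).

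Fatty acids reach a muscle fibre by a pair of routes: free in plasma bound to albumin, or inside the triglyceride of lipoproteins. Lipoprotein lipase, held on the capillary wall by the anchor protein Gpihbp1 and inhibited by Angptl4, cuts that triglyceride, and Vldlr takes part in docking triglyceride-rich particles. Cd36 and the fatty acid transport proteins Slc27a1 and Slc27a4 then help fatty acids across membranes, and fatty acid binding proteins carry them inside the cell. Several of these genes are known targets of the peroxisome proliferator-activated receptors (PPARs), nuclear receptors that respond to fatty acids.

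The muscle was tibialis anterior of male Wistar rats aged 11 weeks, all on a diet with 45% of energy from fat for 3 weeks. Plasmid DNA (150 µg) was electroporated into the muscle after the second week of the diet, and the muscle was taken 8 days later. The groups were Plin5 (pcDNA3.1-CMV-Plin5, also called OXPAT), Plin2 (pENTR-CMV-Plin2, also called ADRP) and empty vector (pcDNA3.1 without insert). The CMV promoter is not specific to muscle fibres. The Plin2 plasmid has a different backbone, so backbone and insert cannot be told apart on that array. Each group was 1 array with RNA pooled from 6 rats. The sham-electroporated leg on the other side was not analysed here. With 1 pooled array per group there is no spread between animals and no test: every difference below is between a pair of arrays, and the number of arrays limits its precision.

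Values are the deposited log2 levels after robust multi-array averaging (RMA). The array medians over 29214 probe sets were 6.37 (Plin5), 6.40 (Plin2) and 6.38 (empty vector). Plin5 stood at 8.30, 6.79 and 7.52 on the Plin5, Plin2 and empty vector arrays, and Plin2 at 10.08, 10.70 and 9.99, so each gene was highest on the array of its own plasmid. The species of the introduced cDNAs is not in the labels used here, so how much plasmid transcript these rat probe sets read is unknown. RMA returned exactly equal values on all 3 arrays for 24.6% of the 10879 genes above the dim level, but for 0 of the 9 genes described here. A gene was counted as different when its levels on both arrays differed by at least 1.5-fold, which is 0.58 log2 units. Each comparison shares an array with each of the others, so none of the 3 is independent.

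Fabp3, Vldlr and Angptl4 differed by at least 1.5-fold between the Plin2 and empty vector arrays. Fabp3 and Vldlr were lower on the Plin2 array (by 2.21-fold and 1.72-fold) and Angptl4 was higher (1.78-fold). None of the 9 genes differed by that much between the Plin5 and empty vector arrays, but Angptl4 came close to it (1.49-fold higher on the Plin5 array). Over all 10879 genes above the dim level, 0.221% were at least 1.5-fold higher and 1.42% lower on the Plin5 array than on the empty vector array. For Plin2 against empty vector these shares were 8.84% higher and 5.8% lower, so 1 of 9 genes higher and 2 of 9 lower on the Plin2 array has to be read against a background in which such differences are common.

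RefSeq start-site windows (build GRCr8) were given for 6 of the 9 genes. The 250 bases before the start are printed for Angptl4, Fabp3 and Vldlr because these are the genes that passed 1.5-fold against the empty vector. Capitals mark TATAAA and GGGCGG on either strand. The windows are Angptl4 at chr7:15258682-15258931 on the minus strand, Fabp3 at chr5:147935875-147936124 on the plus strand and Vldlr at chr1:234240436-234240685 on the plus strand.
Angptl4: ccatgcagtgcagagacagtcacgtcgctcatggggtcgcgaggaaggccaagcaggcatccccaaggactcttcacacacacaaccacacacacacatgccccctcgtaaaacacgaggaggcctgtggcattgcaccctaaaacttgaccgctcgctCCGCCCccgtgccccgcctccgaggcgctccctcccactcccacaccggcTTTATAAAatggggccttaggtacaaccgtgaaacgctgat
Fabp3: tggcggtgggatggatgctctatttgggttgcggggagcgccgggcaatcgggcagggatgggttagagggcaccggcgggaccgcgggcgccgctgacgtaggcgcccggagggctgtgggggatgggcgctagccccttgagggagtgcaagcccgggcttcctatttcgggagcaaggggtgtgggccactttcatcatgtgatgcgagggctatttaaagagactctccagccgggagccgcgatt
Vldlr: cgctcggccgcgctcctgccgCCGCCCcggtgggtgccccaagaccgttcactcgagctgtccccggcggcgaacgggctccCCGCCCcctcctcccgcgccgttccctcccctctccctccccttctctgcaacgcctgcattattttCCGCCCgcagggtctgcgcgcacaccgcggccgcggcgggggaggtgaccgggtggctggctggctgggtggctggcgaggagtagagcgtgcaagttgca
Angptl4 and Vldlr hold marked motifs and Fabp3 does not. Angptl4 holds TATAAA on both strands in overlapping matches that begin 41 and 39 bases before the start, and 1 GGGCGG. Vldlr holds 3 copies of GGGCGG and no TATAAA. Of 33469 rat windows of the same length, 12.9% hold TATAAA and 30.5% hold GGGCGG. The share of G and C was 60.0% in Angptl4, 65.6% in Fabp3 and 73.6% in Vldlr, against a median of 51.2% over all windows. The direct repeat AGGTCANAGGTCA, the form of site bound by PPARs, was searched on both strands. It occurred in 0 of the 6 windows and in 0.0508% of all windows, and a single AGGTCA (which the repeat contains) occurred in the Slc27a1 window alone of the 6, against 14.1% of all windows. These matches describe exact letters in a short window. Sites that depart from those letters, and sites elsewhere in the genes, were not searched.

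**Figure D1:**
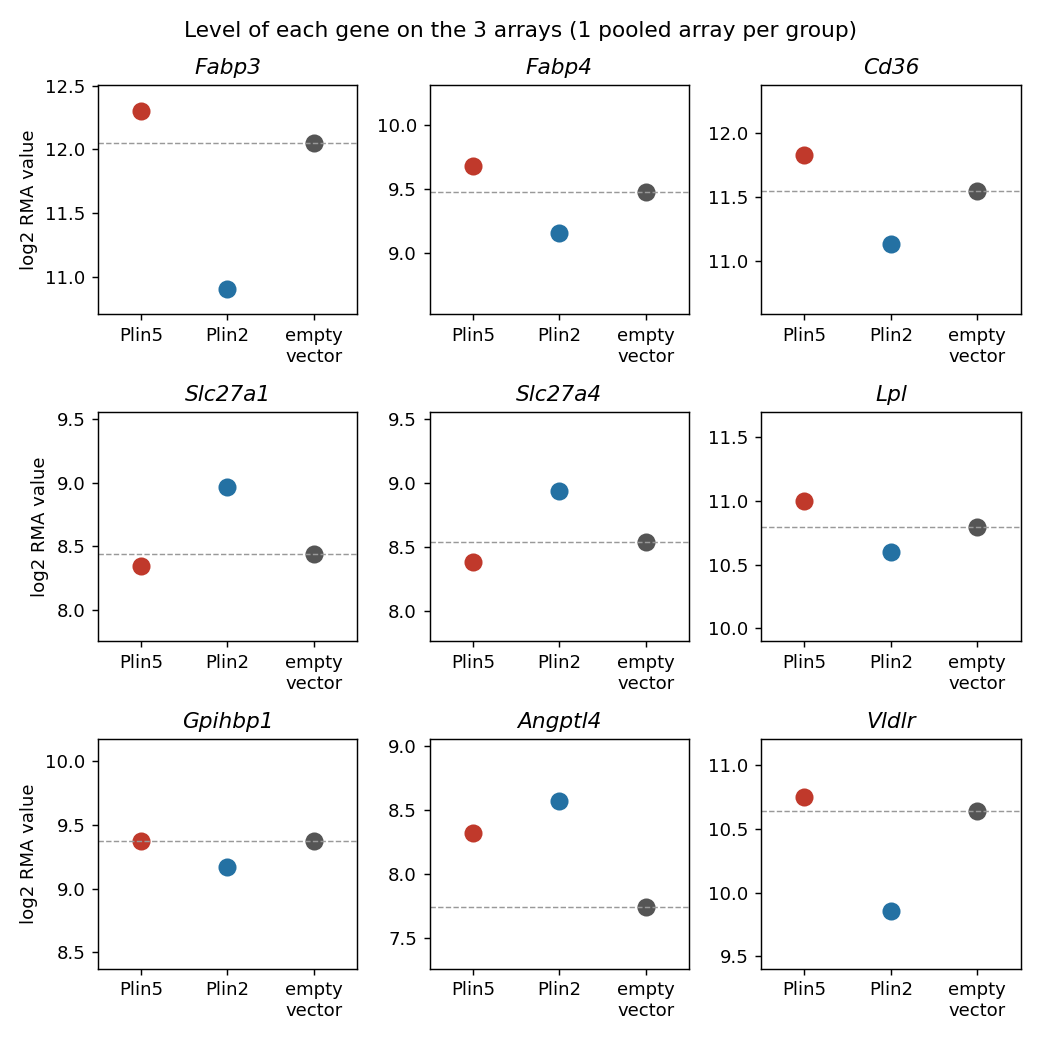
Log2 RMA level (vertical axis, spanning the same number of log2 units in every panel) of each of the 9 genes on the Plin5, Plin2 and empty vector arrays; each point is 1 pooled array and the dashed line is the empty vector level. Fabp3 and Vldlr have their low point on the Plin2 array, and Angptl4 has its low point on the empty vector array.

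Fabp3, the fatty acid binding protein of heart and skeletal muscle fibres, stood at 12.31 on the Plin5 array, 10.91 on the Plin2 array and 12.05 on the empty vector array. The Plin2 array was the low one. Plin2 muscle held 45.3% of the empty vector level, a log2 difference of −1.14, and 87 of the 10879 genes, Fabp3 included, were as low or lower in that comparison. The Plin5 array was 0.26 above the empty vector (1.19-fold), short of the 1.5-fold line.

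Fabp4, the binding protein of adipocytes that is also made by capillary endothelium and macrophages, stood at 9.68, 9.15 and 9.47 on the Plin5, Plin2 and empty vector arrays. The order of the arrays was that of Fabp3 with a smaller span. Against the empty vector the difference was 0.21 on the Plin5 array and −0.32 on the Plin2 array, neither at 1.5-fold. For Fabp4, as for every gene in these whole-muscle pools, fewer cells of a type and less RNA per cell cannot be told apart.

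Cd36, the membrane receptor that takes up long-chain fatty acids, stood at 11.83 on the Plin5 array, 11.13 on the Plin2 array and 11.55 on the empty vector array. The Plin5 array was highest and the Plin2 array lowest, at 0.28 above and −0.42 against the empty vector. A second Cd36 probe set read 9.72, 9.30 and 9.51 on the Plin5, Plin2 and empty vector arrays. It gave differences of 0.21 for Plin5 and −0.20 for Plin2 against the empty vector. Both probe sets put the 3 arrays in the same order, and the second put the Plin2 array closer to the empty vector.

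Slc27a1 (Fatp1) and Slc27a4 (Fatp4) are membrane proteins that take up fatty acids and join them to coenzyme A. Slc27a1 stood at 8.35, 8.96 and 8.44 on the Plin5, Plin2 and empty vector arrays. Slc27a4 stood at 8.38, 8.94 and 8.54 on the same arrays. For both genes the Plin2 array was the high one, by 0.53 (Slc27a1) and 0.40 (Slc27a4) over the empty vector, which is under 1.5-fold. The Plin5 array was slightly under the empty vector for both, at −0.09 and −0.16.

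Lpl, the lipase itself, stood at 11.00 on the Plin5 array, 10.60 on the Plin2 array and 10.79 on the empty vector array. These are differences of 0.20 and −0.20 from the empty vector, 1.15-fold each way. Gpihbp1, which carries the lipase to the capillary lumen, had exactly the same value (9.38) on the Plin5 and empty vector arrays and 9.17 on the Plin2 array, which is −0.21 against the empty vector. Neither gene approached 1.5-fold in any of the 3 comparisons. Equal values are common in this table: 40.2% of genes above the dim level were equal between the Plin5 and empty vector arrays.

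Angptl4, the secreted inhibitor of the lipase, stood at 8.32 on the Plin5 array, 8.57 on the Plin2 array and 7.74 on the empty vector array. Here the empty vector array was the low one, and both perilipin arrays lay above it. The difference was 0.58 for Plin5 (1.49-fold) and 0.83 for Plin2 (1.78-fold). On the Plin5 array, 0.230% of all genes were as high or higher, a set of 25 genes with Angptl4 the last of them; on the Plin2 array the share was 4.51%. The Plin5 value passed 1.5-fold when the arrays were set to a common median (0.61) or quantile-normalized again (0.61). It stayed under the line (0.585) with loess (0.580) or averaged probe sets (0.576). The Plin5 and Plin2 differences share the same single empty vector array.

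Vldlr, the very low density lipoprotein receptor, stood at 10.75 on the Plin5 array, 9.86 on the Plin2 array and 10.64 on the empty vector array. The Plin2 array was low, at 58.1% of the empty vector level (−0.78), and 2.81% of genes were as low or lower. The Plin5 array was 0.11 above the empty vector.

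**Figure D2:**
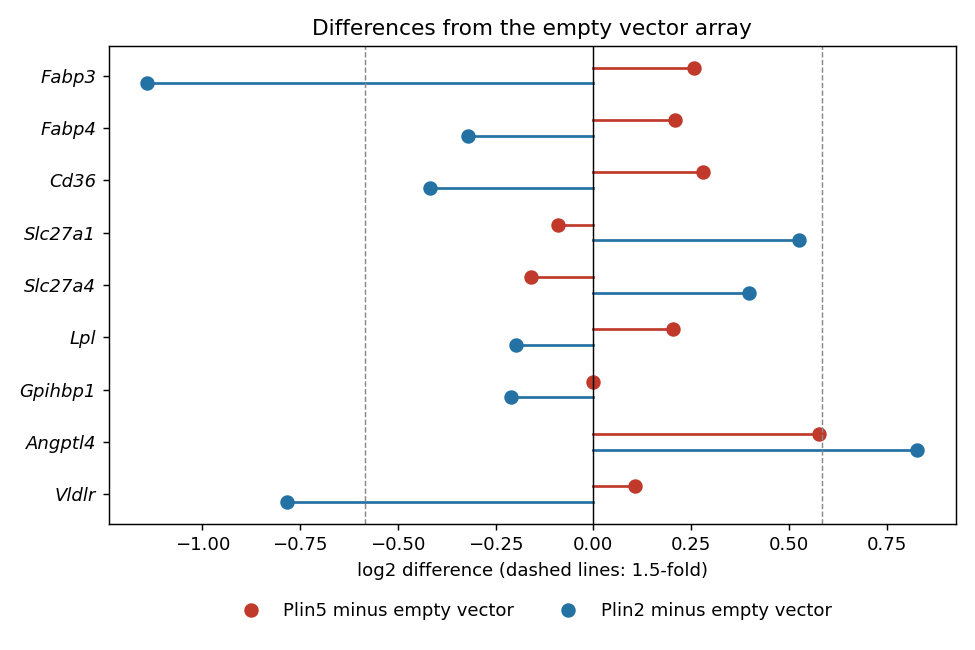
Log2 difference from the empty vector array (horizontal axis) for each gene on the Plin5 array (red) and the Plin2 array (blue), with dashed lines at 1.5-fold. Fabp3 (−1.14), Vldlr (−0.78) and Angptl4 (0.83) pass the lines on the Plin2 array, and Angptl4 on the Plin5 array (0.58) lies just inside.

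As a group, the 9 genes had a median difference of 0.20 between Plin5 and empty vector and −0.21 between Plin2 and empty vector, while the median over all 10879 genes was 0.00 in both. On the Plin5 array 6 of the 9 were above the empty vector, 2 below and 1 equal, against 25.8% above, 34% below and 40.2% equal among all genes. At a lower line of 1.2-fold, 2 of 9 were higher (Angptl4 and Cd36) and 0 lower, against 1.52% and 5.71% of all genes. Cd36 (0.28) stayed past that line with centring (0.32) and loess (0.27). It fell under the line by its second probe set (0.21), with averaged probe sets (0.25) and with quantile normalization (0.25). On the Plin2 array 3 of 9 were above and 6 below the empty vector, against 38.3% and 31.7% of all genes. At 1.2-fold, 3 of 9 were higher and 4 lower there, against 19.4% and 15.5%.

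**Figure D3:**
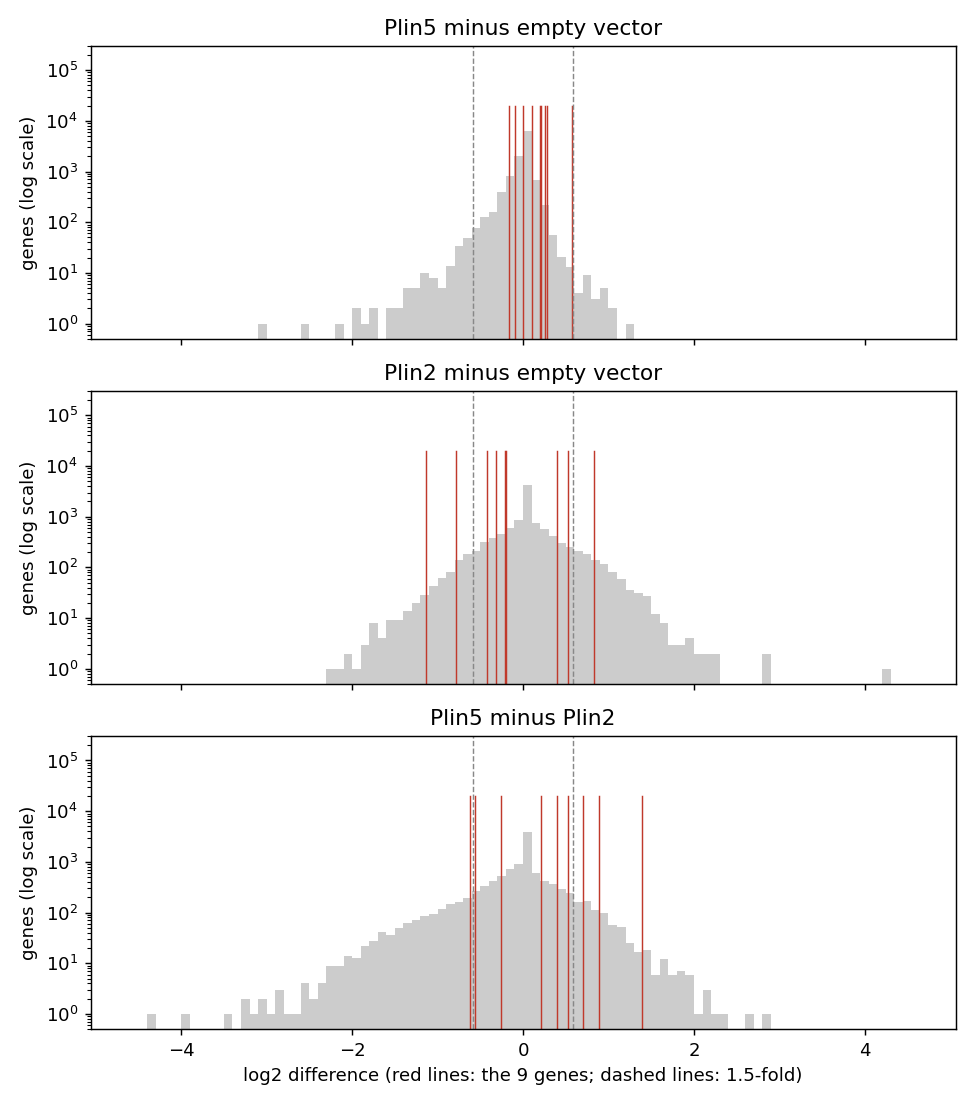
Number of genes (log scale) by log2 difference for the 10879 genes above the dim level, in each of the 3 comparisons, with red lines at the values of the 9 genes and dashed lines at 1.5-fold. The grey distribution is much wider where the Plin2 array is involved, and Angptl4 is the red line nearest to the 1.5-fold line in the Plin5 and empty vector panel.

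Set directly against each other, the Plin5 and Plin2 arrays differed by at least 1.5-fold for 4 of the 9 genes. Fabp3 (12.31 on Plin5, 10.91 on Plin2) was 2.64-fold higher on the Plin5 array, Vldlr (10.75 and 9.86) was 1.85-fold higher and Cd36 (11.83 and 11.13) was 1.62-fold higher. Slc27a1 (8.35 and 8.96) was 1.53-fold lower. The shares of all genes past 1.5-fold were 7.19% higher and 11.3% lower on the Plin5 array, against 3 of 9 and 1 of 9 here.

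Fabp4 (0.53) and Slc27a4 (−0.56) lay just inside the line, and Lpl (0.40), Gpihbp1 (0.21) and Angptl4 (−0.25) further from it. The median of the 9 was 0.40, against 0.00 over all genes. The calls nearest the line moved with the scaling: centring gave −0.53 for Slc27a1 and 0.62 for Fabp4, and averaging both Cd36 probe sets gave 0.56 for Cd36.

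The relatives of these genes were read from 7 wider lists, which were chosen with earlier results of these data known. Their counts past 1.5-fold stand against the shares of all genes. These were 0.221% higher and 1.42% lower for Plin5 against empty vector, and 8.84% higher and 5.8% lower for Plin2 against empty vector. Among the 6 fatty acid transport proteins, 3 were above the dim level. The one not among the 9, Slc27a3, stood at 6.21 on the Plin5 array, 8.34 on the Plin2 array and 7.40 on the empty vector array. It was lower on the Plin5 array (−1.19) and higher on the Plin2 array (0.95), so all 3 measurable transport proteins were highest on the Plin2 array. Slc27a2, Slc27a5 and Slc27a6 were dim and equal on all 3 arrays.

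Of 10 fatty acid binding proteins, 3 were above the dim level, namely Fabp3, Fabp4 and Fabp5. Fabp3 alone of these passed 1.5-fold. Of 7 long-chain acyl-CoA synthetases, which activate fatty acids after uptake, 6 were above the dim level, and 0 of them passed 1.5-fold on the Plin5 array against the empty vector. On the Plin2 array 2 were lower and 1 higher than on the empty vector array. Acsl1 stood at 11.59, 10.48 and 11.34 on the Plin5, Plin2 and empty vector arrays, and Acsl6 at 10.11, 8.45 and 10.02. Acsl5 was higher on the Plin2 array (0.59), at the line itself. The median of the 6 was 0.00 against the empty vector for both perilipins.

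Of 16 genes of the lipase system, 14 were measured and 12 lay above the dim level. On the Plin5 array Apoc1, which encodes a small apolipoprotein that restrains lipolysis, was lower, with 5.94 against 6.72 for the empty vector. On the Plin2 array Angptl4 was joined by Lipg, the endothelial lipase, which read 9.53, against 8.38 for the empty vector (1.16). The median of the 12 was 0.00 in both comparisons. Of 12 lipoprotein receptor genes, 9 were measured and 8 lay above the dim level. The high density lipoprotein receptor Scarb1 was higher on the Plin2 array, with 10.13 against 9.25 for the empty vector, and Vldlr was lower. Lrpap1, a chaperone of this receptor family, passed 1.5-fold only between the perilipin arrays, at 9.09 on Plin5 and 9.78 on Plin2. The receptor medians were −0.02 for Plin5 and 0.13 for Plin2. Of 7 caveola proteins, which form the membrane pits where Cd36 gathers, 0 passed 1.5-fold in any comparison, with a median of 0.00 in each.

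The list of PPAR-responsive genes of muscle overlaps with the genes described here by 6 members. Its other 18 genes above the dim level include Plin5 and Plin2, the genes on the plasmids. On the Plin5 array 15 of the 18 were above the empty vector (median 0.16), against 25.8% of all genes. The single one past 1.5-fold was Plin5, on the array of its own plasmid. On the Plin2 array 12 of those 18 were at least 1.5-fold lower and 2 higher (median −0.69), against 5.8% and 8.84% of all genes. The lowest were the mitochondrial genes Acadm (−1.07), Ech1 (−1.03), Slc25a20 (−1.01) and Acadvl (−0.91), near the value of Fabp3. The 2 higher ones, named after their values were seen, were Ucp2 (0.83) and Plin2 (0.71), the latter on the array of its own plasmid. Angptl4 and Slc27a1 were above the empty vector on the Plin2 array as well.

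Markers of the cell types that make these proteins were read on the same arrays, against the same shares of all genes as the wider lists. Of 19 measured macrophage markers, 7 were at least 1.5-fold lower and 0 higher on the Plin5 array (median −0.47). On the Plin2 array 17 were higher and 0 lower (median 1.19). None of the markers was at 0, and the log2 of their summed linear level was 13.71 on the Plin5 array, 15.19 on the Plin2 array and 14.07 on the empty vector array. The brightest were Lyz2, Gpnmb, C1qa and Cd68. Cd68 stood at 9.75 on the Plin5 array, 11.68 on the Plin2 array and 10.41 on the empty vector array. The order was Plin2, empty vector, Plin5 from high to low for 15 of the 19, Cd68 among them. Of the other 4, Lyz2, Cd14 and Cd163 had the empty vector lowest and Marco was equal on all 3 arrays. The 3 transport proteins, Lipg and Scarb1 had the order of the 15. So had other genes of the wider lists, among them Apoc1, Lrp1, Lrpap1, Ucp2 and Cpt1a. The share of all genes with this order was not counted, and the part of macrophages in those values was not tested.

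Of 16 measured endothelial markers, 0 passed 1.5-fold on the Plin5 array, and 1 was higher on the Plin2 array, with medians of 0.01 and 0.00. Pecam1 was equal on all 3 arrays (10.13), and Cdh5 (10.39, 10.32 and 10.32), Eng (10.58, 10.80 and 10.55) and Emcn (9.92, 9.92 and 9.86) stayed within 0.26 of the empty vector on the Plin5 and Plin2 arrays. The summed level of the list was 13.34, 13.36 and 13.30 on the Plin5, Plin2 and empty vector arrays. Fabp4 (−0.32), Gpihbp1 (−0.21) and Cd36 (−0.42), all made by capillary endothelium, lay below the empty vector on the Plin2 array. Of the 16 endothelial markers, 7 lay above it there, 4 were equal and 5 lay below. Furthest above were Plvap (0.89), Eng (0.26) and Tek (0.23). Furthest below were Flt1 (−0.36), Egfl7 (−0.23) and Kdr (−0.21). These markers were picked after their values were seen. The part of endothelial content in the values of Fabp4, Gpihbp1 and Cd36 was not tested.

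Of 14 measured adipocyte markers, 0 passed 1.5-fold on the Plin5 array and 1 was lower on the Plin2 array, with a median of 0.00 for both. Of the 14, 11 lay above the dim level, and Adipoq (6.54) and Plin1 (5.94), which define the cell type, were equal on all 3 arrays. Of the brightest in the list, Car3, Lipe and Nnat differed from the empty vector by at most 0.24. Aqp7, a glycerol channel found in muscle as well, stood at 8.96 on the Plin5 array, 7.15 on the Plin2 array and 8.80 on the empty vector array. The summed level was 13.78, 13.64 and 13.80 on the Plin5, Plin2 and empty vector arrays. Car3 alone stood at 13.55, 13.42 and 13.57, so the sum mostly reads Car3. That is near the level of the muscle fibre marker Ckm (13.71, 13.64 and 13.71) and far above Adipoq. The part of muscle fibres in the Car3 value was not tested.

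Of 16 measured muscle fibre markers, 0 passed 1.5-fold on the Plin5 array and 3 were lower on the Plin2 array. Their medians were 0.02 and −0.28, and all 16 were below the empty vector on the Plin2 array. On the Plin5 array 12 of the 16 were above the empty vector and 4 below, beside 6 above and 2 below among the 9 genes. The brightest, Acta1 (14.04, 14.02 and 14.04 on the Plin5, Plin2 and empty vector arrays), Mb, Ckm and Atp2a1, differed from the empty vector by at most 0.15, near the top of the array's range. The summed level was 17.40, 17.11 and 17.37. Fabp3 (−1.14) was further below the empty vector on the Plin2 array than the fibre median. Within the list Myh7 (−1.75) was further below than Fabp3, and every other fibre marker, from Myh2 (−0.98) on, was less far below. The part of fibre content in the Fabp3 value was not tested.

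The genes with the most similar pair of differences from the empty vector were looked up for the 3 genes past 1.5-fold, by Euclidean distance over 3 arrays. Nearest to Fabp3 were Abra (0.27 for Plin5 and −1.14 for Plin2), Esrrg (0.24 and −1.12) and Pkp2 (0.22 and −1.13). Nearest to Vldlr were Osbpl6 (0.10 and −0.79), Chpt1 (0.11 and −0.77) and Atp5mc1 (0.11 and −0.79). Angptl4 had fewer near neighbours: the closest were the interferon-inducible GTPase genes Irgm (0.57 and 0.81) and Igtp (0.51 and 0.69), and Dram1 (0.42 and 0.87). The third neighbour lay at a distance of 0.158 for Angptl4, against 0.0340 for Fabp3 and 0.0108 for Vldlr. Such a distance depends on how many genes have differences of that size. Only 25 of 10879 genes, Angptl4 included, were as high as Angptl4 on the Plin5 array, so it adds little to that count. With 3 arrays such likeness is a description of these pools.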

How the data were processed

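RNA of rat tibialis anterior was measured on 3 whole-transcript arrays, 1 per group, each with RNA pooled from 6 rats; 100 ng entered each labelling, per the labels' protocols. The authors deposited log2 values made with RMA, per the submitters' processing notes; their log base was taken from the method and the range of the values, since no source used here states it. Neither the chip description nor the build behind the values is given in the sources used here. RMA makes the distributions of the arrays alike, so it hides a change in total RNA. The highest value was 14.04 on each array, and differences of genes near that top may be compressed.

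The table held 29214 probe sets. Those with 1 annotated symbol (15310) were used, and those with several (323) or without an entry (13581) were not. These gave 14506 genes, and the 527 with more than 1 probe set were represented by the brightest on average. Genes with a mean under the 25th percentile (5.34) were called dim, which left 10879. Differences were taken between pairs of arrays and called at 1.5-fold, with no test. The 9 genes, 7 pathway lists and 4 marker lists were chosen with earlier results of these data known. The lists were fatty acid transport proteins, fatty acid binding proteins, acyl-CoA synthetases, the lipase system, lipoprotein receptors, caveola proteins, PPAR-responsive genes, and markers of endothelium, macrophages, adipocytes and muscle fibres. Genes named by rule were the 9, up to 4 list genes per comparison past 1.5-fold, the 4 brightest markers of each list and the 3 nearest genes in pattern. Other list genes named in the text fall outside that rule and were chosen with their values known. Counting was tested on simulated arrays. There were 8 alternatives: 2 fold lines, 2 dim filters, centring, quantile normalization, loess and averaged probe sets. Promoter letters are RefSeq's (GRCr8). Computation used pandas 2.3.3 and numpy 2.4.6 under Python 3.11.15, with statsmodels 0.14.6 for loess and matplotlib 3.10.9 for plots.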

Additional observations from a re-analysis of the deposited data

How the results depend on the processing

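No paired analysis was possible because each group had 1 array, and no array could be left out. Under centring, quantile normalization, loess and averaged probe sets, the 9 genes' differences kept their sign in all 3 comparisons, apart from Gpihbp1 on the Plin5 array, which was exactly equal to the empty vector as deposited and up to 0.04 above it otherwise. Of 108 such values, 102 stayed on their side of the 1.5-fold line. The medians of the 9 moved by no more than 0.1. Centring shifted the differences of all genes by 0.04 (Plin5 minus empty vector), −0.05 (Plin2 minus empty vector) and 0.09 (Plin5 minus Plin2). Centring and quantile normalization each gave 1 of the 9 genes higher on Plin5 than on empty vector in place of 0. Each also gave 0 lower on Plin5 than on Plin2 in place of 1. With centring this follows from the construction of the shift, which is the same for all genes. Quantile normalization moved genes by different amounts. For all genes, centring gave 1012 higher and 1032 lower between Plin5 and Plin2, in place of 782 and 1225, and quantile normalization gave 899 and 1079.

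The fold line set the counts. At 1.2-fold, 2 of the 9 were higher on Plin5 than on empty vector, and Cd36, which was among them, fell under that line with averaged probe sets or quantile normalization. On Plin2, 3 were higher and 4 lower than on empty vector. Between Plin5 and Plin2, 5 were higher and 2 lower on Plin5. At 2-fold the corresponding counts were 0 for Plin5, 0 higher and 1 lower for Plin2, and 1 higher and 0 lower between Plin5 and Plin2. Over all genes, 1.2-fold gave 165 higher and 621 lower (Plin5 against empty vector), 2106 and 1682 (Plin2 against empty vector), and 1803 and 2397 (Plin5 against Plin2). At 2-fold these were 3 and 40, 272 and 142, and 215 and 562. Of 336 counts of wider lists under the alternatives, 57 moved by more than 1.5 times or to or from 0. The arrays give no measure of background signal, so only the dim level bounds what faint genes show.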

Other observations

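Some genes of the marker lists differed from the median of their own list; they were picked out after their values were seen. In the endothelial list, Plvap, a protein of capillary openings, stood at 8.17 on the Plin5 array, 9.30 on the Plin2 array and 8.41 on the empty vector array. Flt1, a receptor for vascular growth factors, stood at 9.93, 9.31 and 9.67 on the same arrays. That order was also seen for Cd36, Fabp3, Fabp4, Lpl and Vldlr, and for 12 of the 16 muscle fibre markers. In the adipocyte list, Cfd stood at 7.46 on the Plin5 array, 8.28 on the Plin2 array and 7.81 on the empty vector array, the order seen for 15 of the 19 macrophage markers. In the muscle fibre list, the slow and oxidative myosin genes Myh7 (11.60, 9.42 and 11.17) and Myh2 (12.90, 11.68 and 12.66) were the lowest on the Plin2 array relative to the empty vector. Pvalb (13.07, 12.48 and 13.09) was also past 1.5-fold lower there, and all 16 markers of the list were below the empty vector.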
